A study of Mus musculus with 9 samples.

Results

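The genes described here are the mouse genes whose symbols name translation initiation factors. They were taken as every entry of the authors' deposited expression table with 1 symbol that begins with Eif and a digit from 1 to 6, leaving out the interferon-induced kinase gene Eif2ak2, and 56 of the 23285 entries met this rule. The rule used no measured value. By symbol, 4 of the 56 (Eif2c1 to Eif2c4) are older names of the Argonaute genes, which act in small RNA silencing and are not initiation factors, leaving 52 others; the counts below include all 56. Eif3j was listed only in an entry joined with Gm9781, which the rule leaves out.

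RNA was sequenced from immature erythroid cells sorted from bone marrow of C57BL/6 mice, in 9 libraries that form 3 groups of 3. The control group FFa carried TRIM28(flox/flox) with no Cre transgene and was sorted as CD71(hi)TER119+. Group KOa carried TRIM28(flox/flox):Mx1Cre, was sorted through the same CD71(hi)TER119+ gate and is labelled modestly deleted, with 5 to 8% of the Trim28 gene undeleted and 26% of its mRNA left per the series design text. Group KOb had the same genotype, was sorted as CD71(hi)TER119- and is labelled severely deleted, with 1 to 4% of the gene undeleted and 18% of the mRNA left. Cre was induced by 5 injections of poly(I:C), an agent that raises interferon, given every other day, and mice were analysed 2 weeks after the last. Mx1Cre acts wherever the interferon-responsive Mx1 promoter is active and is not specific to red cell precursors. The sources used here do not give the ages of the mice, whether FFa mice received poly(I:C), or whether each library stands for its own mouse, so the deposited p-values measure only the spread between these libraries, which may be technical. Every control lacked Mx1Cre and KOb differed from the others in its gate, so the effect of the deletion cannot be told apart from that of Cre, and the degree of deletion in KOb cannot be told apart from its TER119- gate.

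Translation initiation loads the small ribosomal subunit with initiator tRNA, recruits it to the capped end of an mRNA and joins the large subunit at the start codon. The eIF2 trimer carries initiator tRNA as a GTP-bound ternary complex, eIF2B reloads eIF2 with GTP, eIF3 holds the assembly on the small subunit, and the cap-binding protein eIF4E, the scaffold eIF4G and the helicase eIF4A bring the mRNA. Both of its main controls are well studied: phosphorylation of eIF2 alpha by stress kinases blocks eIF2B, and the 4E-BP proteins hold eIF4E away from eIF4G until the kinase mTORC1 phosphorylates them. In erythroid cells the heme-regulated kinase encoded by Eif2ak1 couples globin synthesis to the supply of heme.

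Values are group FPKM, fragments scaled by transcript length and by a measure of library size, which the authors computed once per gene and group. What served as that measure of library size is unknown. Where 3 values follow each other they are in the order FFa, KOa, KOb, and paired log2 ratios are KOa and then KOb against FFa. There is therefore no value per library, no SD and no count of reads, and the depth behind each value is unknown. Ratios are the log2 ratios of the authors' deposited table, with a standard error (SE) obtained as the size of the ratio divided by the size of the deposited test statistic. A gene is said to have risen or fallen when the authors' test was completed and their q, the p adjusted over all tested results, lay below 0.05. Trim28 itself was 26.0, 6.64 and 4.76 FPKM in FFa, KOa and KOb, with log2 ratios of -1.97 ± 0.30 and -2.45 ± 0.30 to FFa. It fell in both mutants, and KOb and KOa did not differ by call (-0.48 ± 0.32, q = 0.0535). The labelled percentages of mRNA left may come from these same libraries, so these values are no separate check of the labels. Markers of other cell types also moved with the groups. All 8 B cell markers fell in both mutant groups and their summed level was 230 FPKM in FFa, 20.9 in KOa and 19.6 in KOb. The 10 granulocyte markers summed to 48830 FPKM, 16571 and 13420 (4 fell and 2 rose in KOa, 6 fell and 2 rose in KOb), and the 8 macrophage and monocyte markers to 371, 109 and 97.5 (5 and 8 fell). Of the megakaryocyte markers 3 of 4 tested rose in both mutants, with sums of 34.0, 67.8 and 54.5 FPKM, and the 6 T and NK cell markers summed to 17.6, 17.0 and 15.97, a sum that holds opposite moves: Nkg7 rose in both mutants (3.93, 9.16 and 10.2 FPKM), Cd2 fell in both (5.53, 0.842 and 0.838 FPKM), and Cd3d and Il2rb fell in KOb. Among erythroid markers, the heme synthesis gene Alas2 was 2082, 1167 and 861 FPKM and fell in both mutants, and the red cell transcription factor genes Klf1 (79.2, 80.6 and 62.0 FPKM) and Gata1 (118, 138 and 105 FPKM) had no call, so the labelled cell type carried these markers in all 3 groups. No listed marker was at 0 in all groups. The part of these shifts in the results below was not tested, and in bulk RNA fewer cells of a type and less RNA per cell cannot be told apart.

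A larger share of the members than of all genes tested rose in the mutants, and most rises were in KOb. Of 53 members tested in KOb against FFa, 20 rose (37.7%) and 2 fell (3.77%), where 12.8% of all 10584 genes tested rose and 15.2% fell. In KOa against FFa, 9 of 54 rose (16.7%) and 3 fell (5.56%), beside 7.99% and 14.1% of 10761 genes. Between the mutants, KOb against KOa, 8 of 54 were higher (14.8%) and 2 lower (3.7%), beside 10.0% and 6.19% of 10468 genes. Restricting both sides to genes of at least 5 FPKM in a compared group left 17 of 43 members higher in KOb (39.5%, against 15.7% of genes) and 1 lower (against 18.7%). The same restriction gave 8 of 41 higher in KOa (19.5%, against 11.4%) and 2 lower (against 15.5%). Between the mutants it gave 5 of 43 higher (11.6%, against 12.1%) and 2 lower (against 11.4%), so there the members' share of higher calls was close to that of other genes. The median log2 ratio of the members was 0.33 in KOb against FFa, where that of all genes tested was -0.01, and 42 of 53 ratios were above 0. In KOa it was 0.08 beside -0.08 for all genes, with 32 of 54 above 0, and in KOb against KOa 0.21 beside 0.05, with 40 of 54 above 0. The KOa and KOb comparisons share the FFa libraries. A rescaling to equal upper quartiles moved the median log2 ratio of genes at 1 FPKM or more to 0.32 in KOa, 0.13 in KOb and -0.21 in KOb against KOa, and in the last the members' median turned to -0.049, above that median gene. Read as a standard normal score, the deposited statistic would leave 1 rise and no fall in KOa, 2 rises and no fall in KOb and no call between the mutants, so 41 of the 44 calls of single members would be lost. Calls under that reading were not counted over all genes.

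**Figure D1:**
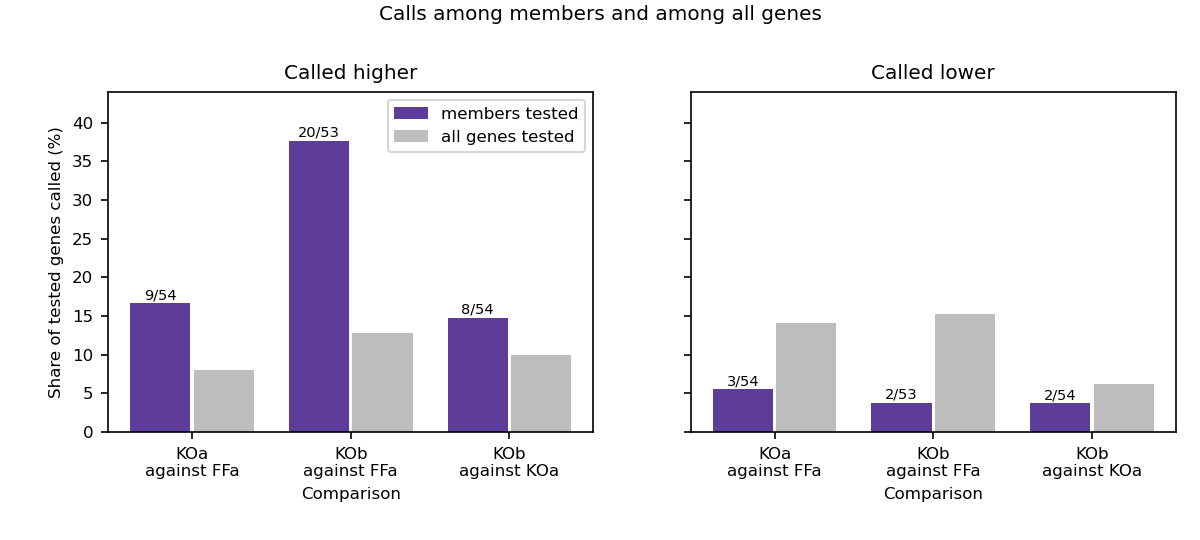
Share of tested genes, in percent, that rose (left) or fell (right) at a deposited q below 0.05 in each comparison, for the member genes (purple, with counts above the bars) and for all genes tested (grey). The member bar for rises in KOb against FFa stands at 37.7%, beside 12.8% of all genes.

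The largest rise that both mutants shared was that of Eif5b, the GTPase that joins the ribosomal subunits (chr1:37998010-38055579). It was 9.004, 19.7 and 19.5 FPKM in FFa, KOa and KOb, log2 1.13 ± 0.32 (q = 0.000619) in KOa and 1.12 ± 0.33 (q = 0.000619) in KOb, so the mutant values were 2.18 and 2.17 times the control. This gene kept its call in both mutants under the normal reading of the statistic, with q of 0.0119 and 0.0153. Exons of Rev1 overlap it on the opposite strand and the sources used here do not say whether counting used strand. Rev1 was 5.43 FPKM in FFa, 4.08 in KOa and 4.92 in KOb. In all, 15 members overlapped another annotated gene, on the same or the opposite strand. Eif4g1, the scaffold that bridges the cap and the small subunit (chr16:20672720-20692883), was 10.4, 18.3 and 19.0 FPKM. Its log2 ratio was 0.82 ± 0.30 in KOa and 0.87 ± 0.30 in KOb, with the smallest q the table can hold, 0.000619, in both. The remaining members that rose in both mutants were Eif2s1, Eif2s2, Eif2s3x and Eif4e, and the only member that fell in both was Eif4e3. No member was called in opposite directions in the 2 mutants, whose ratios share the same FFa values. Shared and opposite calls were not counted over all genes, so neither is shown to be particular to the members.

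Promoter sequence is shown for 3 of the genes whose rises are described here, chosen after their values were seen: Eif5b and Eif4g1, which rose in both mutants, and Eif4a1, which rose in KOb. The stretches are the longest part of the 250 bases before the annotated start that lies outside every annotated exon, from RefSeq on GRCm38.p6, printed 5′ to 3′ on the gene's strand. Capitals mark the E-box CACGTG, the element read by MYC and related factors, which is its own reverse complement and was searched in windows of 300 bases, 250 before and 50 after the start. Eif5b lies at chr1:37997894-37998009 on the plus strand, Eif4g1 at chr16:20672477-20672719 on the plus strand and Eif4a1 at chr11:69672424-69672673 on the minus strand.
Eif5b: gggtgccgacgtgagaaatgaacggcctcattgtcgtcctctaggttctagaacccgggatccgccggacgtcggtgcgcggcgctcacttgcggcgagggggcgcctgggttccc
Eif4g1: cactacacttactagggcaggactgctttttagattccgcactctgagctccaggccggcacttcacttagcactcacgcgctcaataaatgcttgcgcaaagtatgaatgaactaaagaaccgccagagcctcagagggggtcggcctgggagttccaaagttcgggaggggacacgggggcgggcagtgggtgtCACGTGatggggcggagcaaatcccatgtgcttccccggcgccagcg
Eif4a1: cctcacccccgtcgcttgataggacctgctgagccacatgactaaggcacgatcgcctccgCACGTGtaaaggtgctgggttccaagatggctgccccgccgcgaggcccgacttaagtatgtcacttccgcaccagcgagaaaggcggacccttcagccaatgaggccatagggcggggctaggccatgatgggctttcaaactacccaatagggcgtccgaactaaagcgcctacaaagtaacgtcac
Where a gene had more than 1 window, a window with an E-box was preferred for printing, so an E-box in a printed stretch is no separate result. The stretch of Eif4g1 holds 1 E-box 54 bases before a start that the promoter table lists for this gene, position 20672727, that of Eif4a1 holds 1 at 189 bases, and that of Eif5b holds none. Of the members, 44 had an entry in the promoter table (58 windows), and an E-box stood in at least 1 window of 10: Eif1b, Eif3a, Eif3f, Eif3k, Eif4a1, Eif4e, Eif4g1, Eif4h, Eif5a and Eif5a2. Counted by window, 12 of the members' 58 (20.7%) and 7.15% of all 32851 windows held one. These 10 include genes that rose, Eif3k, which fell in KOb, and genes with no call in any comparison, such as Eif4h. The ATF4-type letters TGATGNAA, on either strand, were in 1 of the 58 windows (Eif2s3x) and 3.97% of all windows. A match in letters is a description of the window only.

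The start codon and ternary complex genes numbered 13, of which 5 rose and none fell in each mutant against FFa. Of all genes tested, 7.99% rose and 14.1% fell in KOa, and 12.8% rose and 15.2% fell in KOb. Each of the 3 subunits of eIF2 had a gene among the members of this role that rose. Eif2s1, encoding the alpha subunit that stress kinases phosphorylate (chr12:78862072-78887010), was 4.59, 6.78 and 8.38 FPKM in FFa, KOa and KOb, with log2 ratios of 0.57 ± 0.32 (q = 0.025) and 0.87 ± 0.32 (q = 0.00115). Eif2s2, the beta subunit, was 14.7, 22.1 and 24.0 FPKM, with log2 ratios of 0.59 ± 0.29 (q = 0.00479) and 0.71 ± 0.28 (q = 0.00115). The gamma subunit, which binds GTP and initiator tRNA, has an X-linked and a Y-linked gene. Eif2s3x rose from 4.57 FPKM in FFa to 6.68 in KOa (q = 0.0247) and 7.53 in KOb (q = 0.00115). Its Y-linked copy Eif2s3y was 17.6, 17.2 and 20.0 FPKM, with log2 ratios of -0.04 ± 0.34 and 0.18 ± 0.33 and no call, and the ratio of Eif2s3y to Eif2s3x was 3.85 in FFa, 2.57 in KOa and 2.66 in KOb. The 4 listed sex-linked control genes (Xist, Ddx3y, Kdm5d and Uty) had no call in any comparison. Xist was 3.12, 4.52 and 4.76 FPKM, with log2 ratios of 0.53 ± 0.53 and 0.61 ± 0.55. The Y-linked Ddx3y was 3.90, 3.61 and 4.26 FPKM, Uty 1.55, 1.34 and 1.47, and Kdm5d 0.548, 0.367 and 0.577. Whether the mix of sexes differed between the groups was not tested. Reads that fit both Eif2s3x and Eif2s3y, or a processed pseudogene of Eif2s3x, could be shared between them, so this pair is uncertain. The same holds for Eif1, Eif3e, Eif5a and the Eif4a genes, since the GENCODE annotation has 10 processed pseudogenes named for these genes or Eif2s3x and none has an entry of its own in the deposited table.

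Among the 44 members with a promoter entry, Eif2s3x is 1 of 2, with Eif3f, whose annotated first bases run C and then at least 4 pyrimidines. The other 12 members could not be searched. Such a start, the terminal oligopyrimidine or TOP motif, marks mRNAs whose translation follows mTORC1. It was in 2 of the members' 58 windows (3.45%), near the 2.51% of all 32851 windows. The first 25 bases are given with the opening pyrimidine run of 11 bases in capitals, at chrX:94212627-94212651 on the minus strand for Eif2s3x and at chr7:108934415-108934439 on the plus strand for Eif3f.
Eif2s3x: CTTTTCTCTCCgagcaagatggctg
Eif3f: CTCTCTTTCTCggcaagatggcttc
Eif3f, unlike Eif2s3x, had no call in any comparison and was 50.9, 44.6 and 52.2 FPKM in FFa, KOa and KOb.

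Of the 13 genes of this role, Eif1a alone was called between the mutants, where 10.0% of all genes tested were higher in KOb and 6.19% lower. Eif2d, whose product can deliver initiator tRNA without GTP, was 6.09, 9.05 and 7.12 FPKM in FFa, KOa and KOb and rose in KOa alone (log2 0.57 ± 0.34, q = 0.0255), while its KOb ratio was 0.23 ± 0.35 (q = 0.457). KOb and KOa did not differ by call at this gene (-0.35 ± 0.34, q = 0.198), and exons of Rassf5 overlap it on the opposite strand. Eif1a, a paralog of the scanning factor gene Eif1ax, was 1.57, 1.73 and 3.59 FPKM. It rose in KOb against both FFa (1.19 ± 0.38, q = 0.000619) and KOa (1.06 ± 0.38, q = 0.000619), and its rise over FFa stayed called under the normal reading, at q = 0.0328. Eif1ax itself was 18.7, 18.0 and 23.5 FPKM with no call. The most abundant genes of the role had no call. Eif1, which guards start codon choice, was 254, 205 and 244 FPKM, and Eif5, the GTPase activator of eIF2, was 101, 93.0 and 87.6 FPKM. Eif1b, the close paralog of Eif1, was 16.2, 18.4 and 20.3 FPKM. Eif1ad and Eif2a, neither called, spanned 4.01 to 9.38 FPKM.

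**Figure D2:**
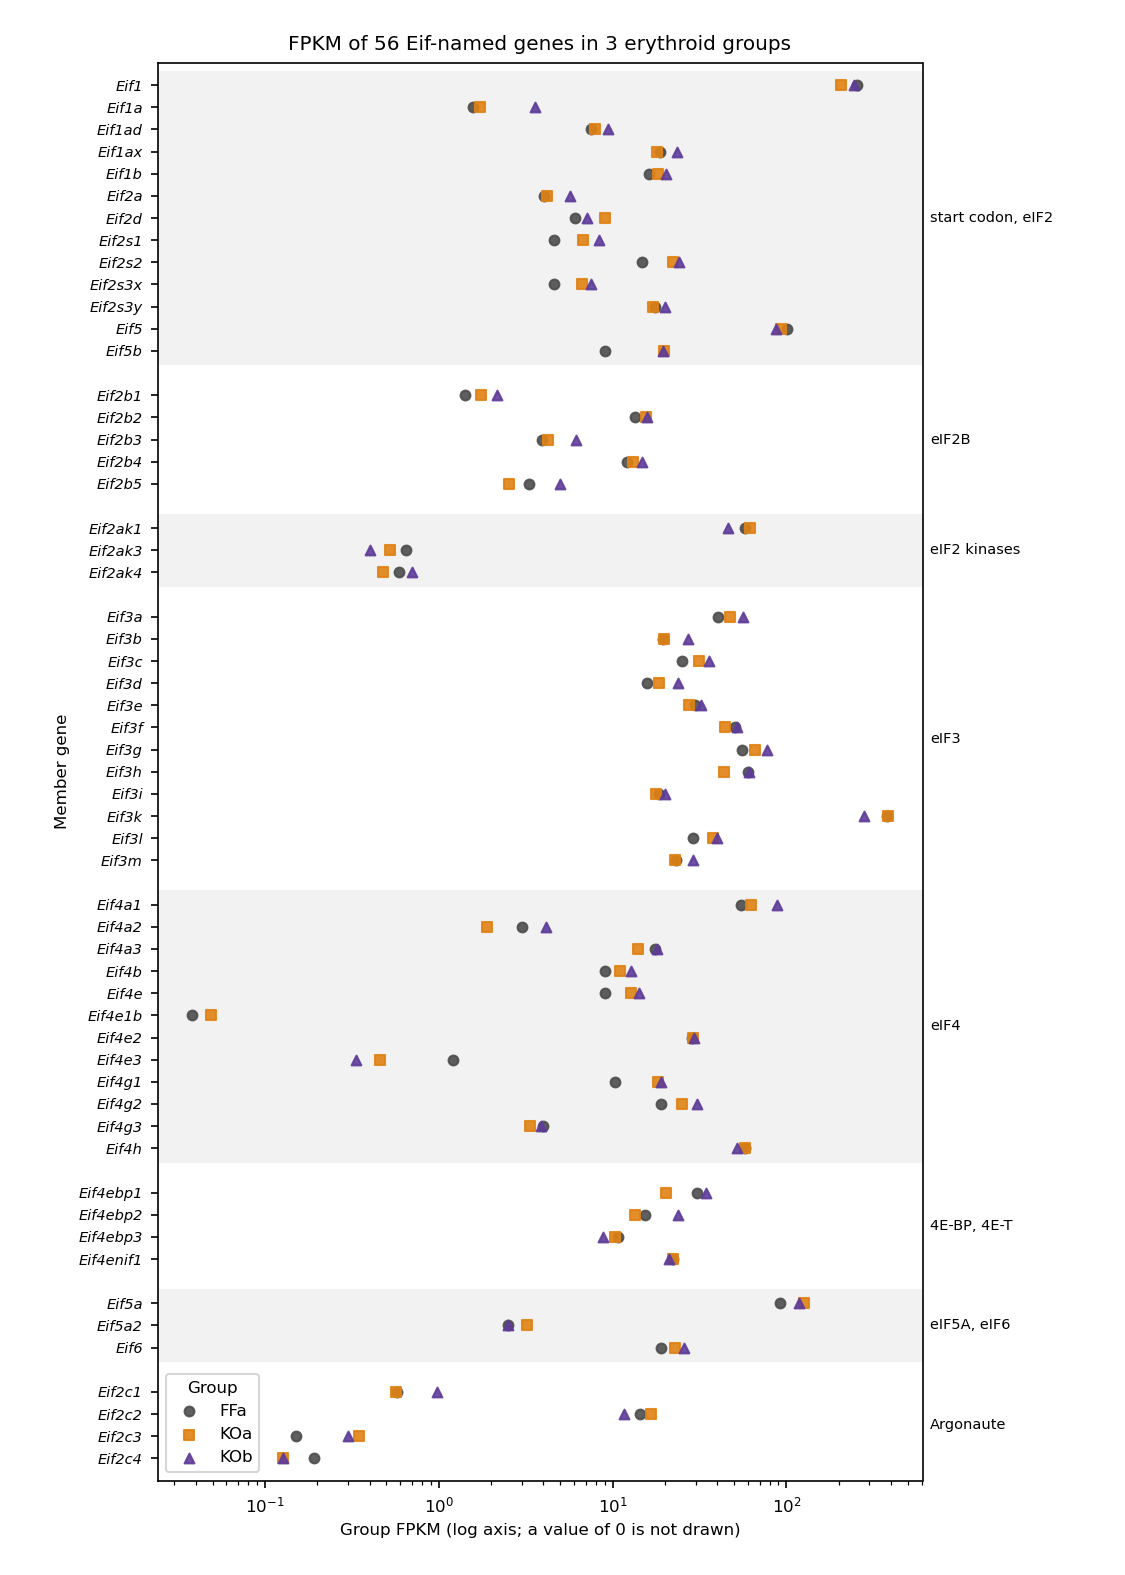
Group FPKM (log axis) of the 56 members in FFa (circles), KOa (squares) and KOb (triangles), grouped by role. For Eif5b and Eif4g1 both mutant points lie together to the right of the control, and Eif3k at 278 to 382 FPKM is the highest row.

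Of the 5 genes of eIF2B, the exchange factor that reloads eIF2, none was called in KOa and 2 rose in KOb, where all 5 ratios were above 0. Of all genes tested, 7.99% rose and 14.1% fell in KOa. In KOb 12.8% rose, 15.2% fell and 49.1% of ratios were above 0. Eif2b5, encoding the catalytic epsilon subunit (chr16:20498795-20509325), was 3.30, 2.54 and 4.97 FPKM in FFa, KOa and KOb. Its log2 ratio to FFa was -0.38 ± 0.37 (q = 0.23) in KOa and 0.59 ± 0.34 (q = 0.0315) in KOb, and KOb exceeded KOa by 0.97 ± 0.36 (q = 0.00115). Eif2b3, encoding the gamma subunit, was 3.95, 4.24 and 6.13 FPKM and rose in KOb (q = 0.0348). The most abundant of the 5 had no call, with Eif2b2 at 13.4, 15.5 and 15.9 FPKM and Eif2b4 at 12.0, 13.1 and 14.8 FPKM. Eif2b1 lay between 1.42 and 2.16 FPKM.

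None of the 3 eIF2 kinase genes was called in any comparison. Eif2ak1, the heme-regulated kinase gene, was by far the most abundant, at 58.0, 61.7 and 46.4 FPKM in FFa, KOa and KOb. Its log2 ratio was 0.09 ± 0.30 (q = 0.78) in KOa, -0.32 ± 0.31 (q = 0.232) in KOb and -0.41 ± 0.31 (q = 0.103) between them. With the rise of Eif2s1, the ratio of kinase to substrate FPKM was 12.6 in FFa, 9.10 in KOa and 5.54 in KOb. It is a ratio of group values that carries no test. Aimp2, at 24.5, 29.5 and 26.1 FPKM, overlaps Eif2ak1 on the opposite strand. Eif2ak3 and Eif2ak4, the kinase genes of the unfolded protein and amino acid responses, were below 1 FPKM in every group.

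Of the 12 eIF3 subunit genes, 6 rose, 1 fell and 5 were not called in KOb, where 12.8% of all genes tested rose and 15.2% fell. In KOa only Eif3h was called, a fall, beside 7.99% of all genes that rose and 14.1% that fell. Called and uncalled subunits overlapped within their SE in KOb, as for Eif3l (0.45 ± 0.27, called) and Eif3m (0.33 ± 0.32, not called). The genes that rose in KOb were Eif3a, Eif3b, Eif3c, Eif3d, Eif3g and Eif3l, with log2 ratios between 0.45 and 0.59. Eif3a, the largest subunit and a core of the complex, was 40.2, 47.2 and 56.1 FPKM in FFa, KOa and KOb (q = 0.0315). Eif3b, its partner on the small subunit, was 19.4, 19.8 and 27.1 FPKM and was also higher in KOb than in KOa (0.45 ± 0.28, q = 0.0466). Eif3c was 25.2, 31.4 and 35.6 FPKM (q = 0.0231). Eif3d, whose product can bind the cap of some mRNAs, was 15.8, 18.5 and 23.7 FPKM, a log2 ratio of 0.59 ± 0.28 (q = 0.00839). Eif3g was 55.2, 65.9 and 77.2 FPKM (q = 0.0248), and Eif3l was 29.1, 37.96 and 39.9 FPKM (q = 0.0442). In each of these 6 the KOa value lay between FFa and KOb, and only Eif3b was called between the mutants.

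Eif3k and Eif3h were the eIF3 genes that fell, each in 1 mutant. Eif3k, a peripheral subunit gene and the member of highest FPKM (chr7:28971372-28981890), was 378, 382 and 278 FPKM in FFa, KOa and KOb. It fell in KOb by 0.44 ± 0.22 on the log2 scale (q = 0.0446) and was lower there than in KOa (-0.46 ± 0.23, q = 0.033), with a KOa ratio of 0.02 ± 0.22. The summed FPKM of the 12 genes was 745 in FFa, 760 in KOa and 731 in KOb, with 11 of 12 ratios above 0 in KOb. Eif3h ran the other way, at 60.2, 43.6 and 60.5 FPKM. It fell in KOa by 0.47 ± 0.25 (q = 0.034), its KOb ratio to FFa was 0.01 ± 0.25, and KOb exceeded KOa by 0.47 ± 0.26 (q = 0.0298). Eif3e, Eif3f, Eif3i and Eif3m had no call, with log2 ratios between -0.19 and 0.33 in the mutants.

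The eIF4 genes, for cap binding, scaffold and helicase, numbered 12 with 11 tested. In KOa 2 rose and 1 fell, beside 7.99% and 14.1% of all genes tested. In KOb 5 rose and 1 fell, beside 12.8% and 15.2% of all genes. Eif4e, the cap-binding protein gene (chr3:138526191-138559696), was 9.04, 12.7 and 14.1 FPKM in FFa, KOa and KOb, with log2 ratios of 0.49 ± 0.31 (q = 0.03) and 0.64 ± 0.31 (q = 0.00161). Its paralog Eif4e2, which binds caps without supporting the usual initiation route, was 28.6, 29.2 and 29.4 FPKM with no call. Eif4e3 was low and fell in both mutants, at 1.21, 0.459 and 0.336 FPKM, with log2 ratios of -1.39 ± 0.63 (q = 0.013) and -1.84 ± 0.70 (q = 0.00681). With a pseudocount of 1 FPKM these ratios were -0.60 and -0.72. A further annotated gene, Gm20696, shares exons with Eif4e3 on the same strand, and the marker levels of B cells, granulocytes and macrophages fell between the same groups; their part in this fall was not tested. The FPKM ratio of Eif4e to Eif4e2 was 0.316 in FFa, 0.436 in KOa and 0.480 in KOb.

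Among the scaffold genes Eif4g1 rose in both mutants and Eif4g2 in KOb. Eif4g2, whose product lacks the eIF4E-binding part and serves cap-independent initiation, was 18.9, 25.2 and 30.5 FPKM in FFa, KOa and KOb, with log2 ratios of 0.41 ± 0.30 (q = 0.0664) and 0.69 ± 0.30 (q = 0.000619). Eif4g3, the second full scaffold gene, was 3.96, 3.34 and 3.86 FPKM with no call, and the ratio of Eif4g1 to Eif4g3 was 2.63, 5.48 and 4.92 in FFa, KOa and KOb. Of the helicase genes, Eif4a1 (chr11:69666936-69672423) was 54.6, 62.3 and 88.6 FPKM. It rose in KOb over FFa (0.70 ± 0.29, q = 0.000619) and over KOa (0.51 ± 0.29, q = 0.0154). Its paralog Eif4a2 was 3.02, 1.88 and 4.14 FPKM, with SE values of 0.92 and 0.77 that left its ratios of -0.68 and 0.46 without a call, and exons of the more abundant Rfc4 overlap it on the opposite strand. Eif4b, which stimulates the helicase, was 8.998, 11.1 and 12.8 FPKM and rose in KOb (0.51 ± 0.29, q = 0.0233), while Eif4h, a related stimulator, was 57.8, 57.5 and 52.2 FPKM with no call. Eif4a3, a helicase of the exon junction complex rather than of initiation, was 17.6, 13.9 and 18.0 FPKM, with no call.

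**Figure D3:**
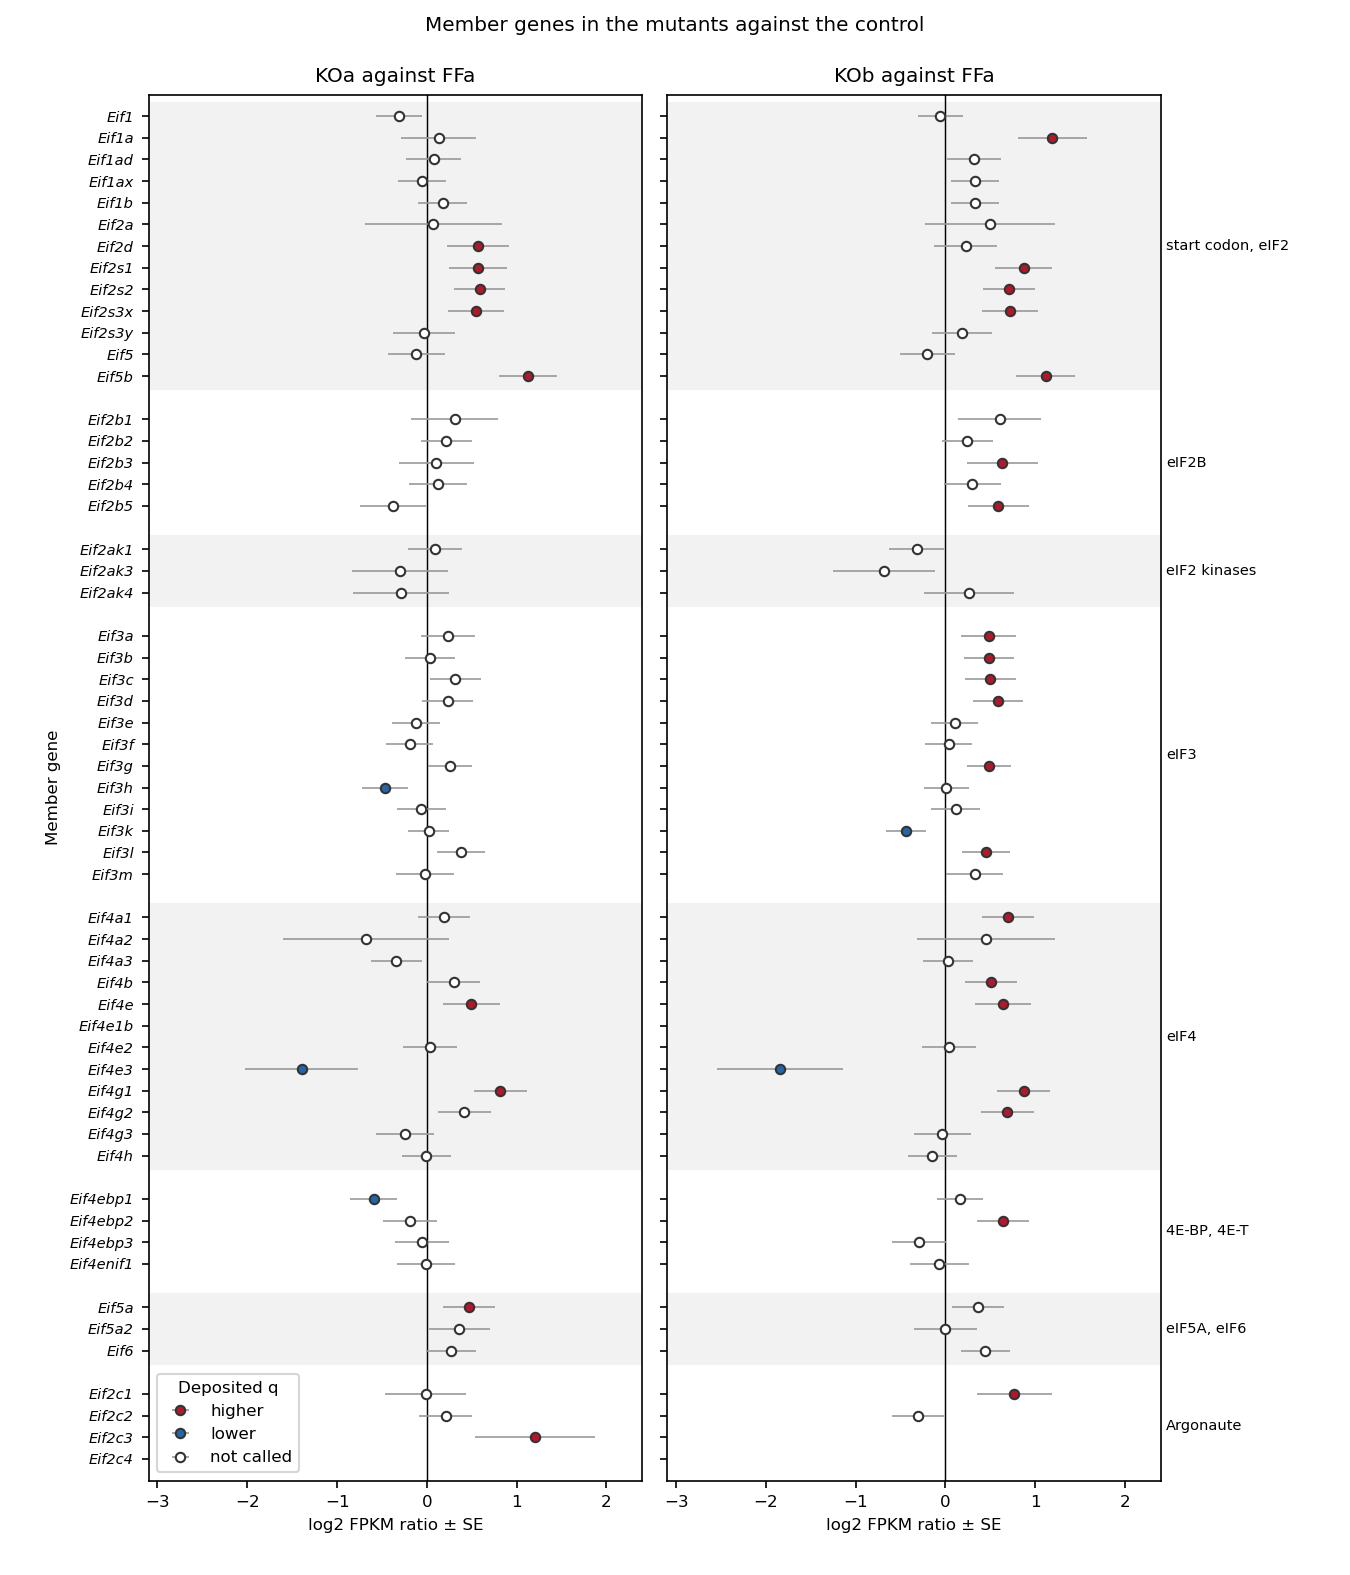
Deposited log2 FPKM ratios with SE bars for the members in KOa against FFa (left) and KOb against FFa (right), with red for genes that rose, blue for genes that fell and open points for no call. Eif5b, Eif4g1 and the eIF2 subunit genes lie right of 0 in both panels, and the red eIF3 points appear in the KOb panel alone.

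Of the 4 genes that bind and restrain or carry eIF4E, 2 differed by call between the mutants, Eif4ebp1 and Eif4ebp2. Of all genes tested there, 10.0% were higher in KOb and 6.19% lower. Eif4ebp1, encoding 4E-BP1, was 30.6, 20.3 and 34.3 FPKM in FFa, KOa and KOb: it fell in KOa by 0.59 ± 0.26 on the log2 scale (q = 0.0141), had a KOb ratio of 0.16 ± 0.25, and was higher in KOb than in KOa by 0.76 ± 0.27 (q = 0.000619). Eif4ebp2 was 15.4, 13.5 and 23.9 FPKM. It had no call in KOa (-0.19 ± 0.30), rose in KOb (0.64 ± 0.29, q = 0.00681) and was 1.77 times as high in KOb as in KOa (q = 0.000619). Eif4ebp3 was 10.7, 10.3 and 8.75 FPKM, and Eif4enif1, encoding the eIF4E transporter 4E-T, was 22.3, 22.1 and 21.2 FPKM, both with no call. Summed over Eif4ebp1 to Eif4ebp3, inhibitor FPKM per FPKM of Eif4e was 6.27 in FFa, 3.46 in KOa and 4.74 in KOb, so it was lower in both mutants as a ratio of group values that carries no test.

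Eif5a, the hypusine-carrying factor that eases peptide bond formation (chr11:69916712-69921958), was 91.5, 126 and 118 FPKM in FFa, KOa and KOb. It rose in KOa (0.47 ± 0.29, q = 0.0274) and had a ratio of 0.36 ± 0.29 in KOb (q = 0.11), and the mutants did not differ by call. Its paralog Eif5a2 was 2.50, 3.21 and 2.50 FPKM, and Eif6, which keeps free large subunits apart from small ones, was 18.9, 22.8 and 25.7 FPKM, with no call in any comparison (q = 0.0622 in KOb). The 2 genes of the hypusine enzymes, Dhps and Dohh, had no call either.

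The Argonaute genes carried 2 of the rises against FFa counted above. Eif2c2, the abundant one, was 14.4, 16.6 and 11.6 FPKM in FFa, KOa and KOb and was lower in KOb than in KOa (-0.52 ± 0.29, q = 0.0164) with no call against FFa. Chrac1, at 14.1, 11.1 and 15.0 FPKM, overlaps Eif2c2 on the opposite strand. Eif2c1 was 0.576, 0.570 and 0.982 FPKM and rose in KOb (q = 0.0156). Eif2c3 rose in KOa from 0.151 to 0.347 FPKM (q = 0.0276). With a pseudocount of 1 FPKM the ratio of Eif2c3 in KOa went from 1.20 to 0.23, and that of Eif2c1 in KOb from 0.77 to 0.33. Besides Eif2c1 and Eif2c3, the members under 1 FPKM in all groups were Eif2c4, Eif2ak3, Eif2ak4 and the oocyte paralog Eif4e1b, 6 in all. Eif2c4 and Eif4e1b were tested in no comparison.

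Over the 3 groups, 53 members were tested in every comparison and could be placed in order: 38 were highest in KOb, 7 in KOa and 8 in FFa, and 24 ran FFa below KOa below KOb. These orders were not counted over all genes, so they are not shown to be particular to the members. They also depend on scaling, since at equal upper quartiles the members' median log2 ratio in KOb against KOa was -0.049. The members higher in KOb than in KOa were Eif1a, Eif2b5, Eif2c1, Eif3b, Eif3h, Eif4a1, Eif4ebp1 and Eif4ebp2, and those lower were Eif2c2 and Eif3k. Of the 14 members that rose in KOb and were not called in KOa, 6 also exceeded KOa by call. For the other 8 (Eif2b3, Eif3a, Eif3c, Eif3d, Eif3g, Eif3l, Eif4b and Eif4g2) the mutants did not differ by call, so a difference between the mutants is not shown for them. Neither the 14 nor their split was counted over all genes, so the pattern is not shown to be particular to the members. Among members of at least 5 FPKM the median SE was about 0.29 in each comparison. The smallest called ratios there were 0.47 in KOa, 0.44 in KOb and 0.45 between mutants, and the largest uncalled ones 0.41, 0.50 and 0.53. Called and uncalled sizes overlapped in KOb and between the mutants, so no common size limit follows. A gene without a call may still have changed.

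**Figure D4:**
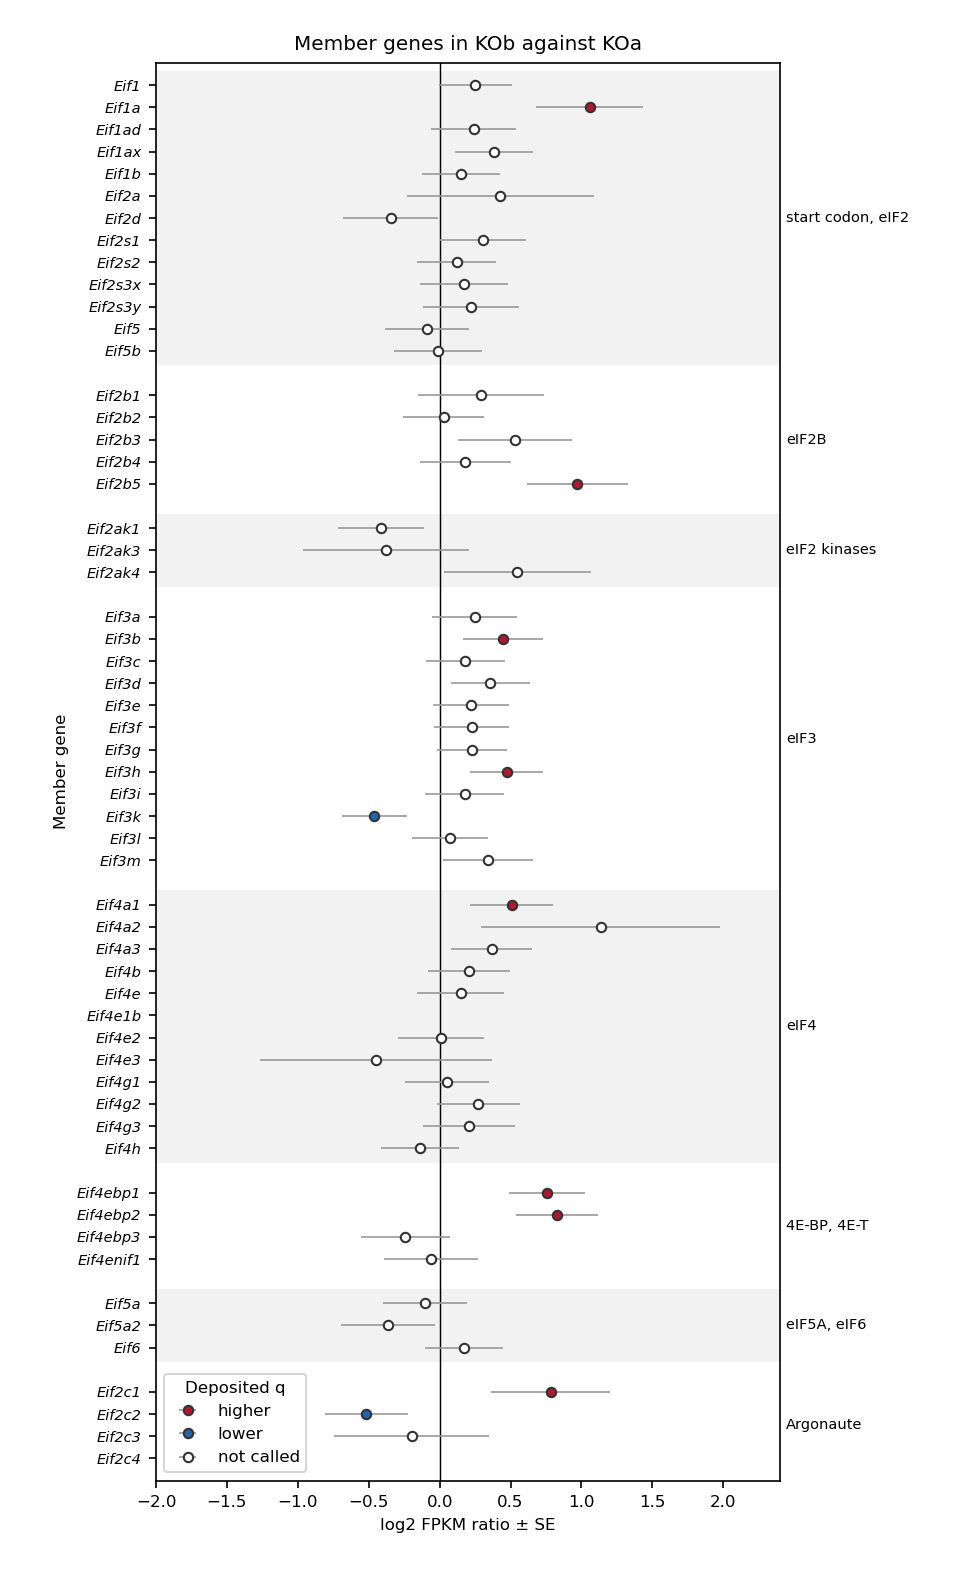
Deposited log2 FPKM ratios with SE bars for the members in KOb against KOa, coloured by call as higher (red), lower (blue) or not called (open). Eif1a at 1.06, Eif2b5 at 0.97 and Eif4ebp2 at 0.83 lie farthest right among the called genes, and Eif2c2 at -0.52 and Eif3k at -0.46 lie left of 0.

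Other genes of the translation pathway were followed in lists, 50 of them tested in each comparison. In KOa 5 rose (10.0%) and 6 fell (12.0%), near the 7.99% and 14.1% of all genes. In KOb 14 rose (28.0%, beside 12.8% of all genes) and 4 fell (8.0%, beside 15.2%). In KOb against KOa 11 were higher (22%, beside 10.0%) and none lower (beside 6.19%). Of 15 further initiation and reinitiation genes 6 rose in KOb (40.0%) and 1 in KOa (6.67%). The largest rises were those of Denr, a reinitiation factor gene (5.15, 5.47 and 10.3 FPKM in FFa, KOa and KOb), of Abce1, the ribosome recycling ATPase gene (5.30, 4.31 and 9.22 FPKM), and of Mcts1, the partner of Denr (6.68, 10.3 and 11.3 FPKM). Both Denr and Abce1 were higher in KOb than in KOa, with log2 ratios of 0.91 ± 0.31 and 1.10 ± 0.31 (q = 0.000619 for each). Mcts1 was the gene of this list that rose in KOa, at q = 0.0437. Pabpc1, the abundant poly(A)-binding protein gene, fell in KOb (1278, 913 and 695 FPKM, q = 0.00115). Against KOa, Paip2b, an inhibitor of poly(A)-binding protein, was also higher in KOb, at 0.763 FPKM beside 0.318 (q = 0.0306).

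Of 9 elongation and termination genes tested, 5 rose (55.6%, beside 12.8% of all genes) and 1 fell (11.1%, beside 15.2%) in KOb. In KOa only Eef1d was called, a fall (11.1%, beside 14.1% of all genes). Gspt1, a termination GTPase gene, was 3.34, 3.84 and 6.53 FPKM in FFa, KOa and KOb, Eef1g, an elongation factor subunit gene, was 22.4, 21.0 and 38.4 FPKM, and the 2 were higher in KOb than in both other groups. Eef1d, another subunit gene of the same exchange complex, fell in both mutants (71.7, 50.3 and 37.4 FPKM). Eef1e1, encoding a partner of the aminoacyl-tRNA synthetase complex, was higher in KOb than in KOa by 0.60 ± 0.29 (q = 0.0174).

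Of the 14 genes of mTORC1 and eIF4E control, 4 rose in KOa (28.6%, beside 7.99% of all genes) and 2 fell (14.3%, near the 14.1% of all genes). In KOb 3 rose (21.4%, beside 12.8%), and none was called between the mutants. Ddit4, an inhibitor of mTORC1, had the largest ratio, at 1.61, 5.71 and 5.77 FPKM in FFa, KOa and KOb (1.82 ± 0.42 and 1.84 ± 0.43, q = 0.000619 for both). Rptor, the substrate-binding subunit of mTORC1, was 1.81, 3.15 and 2.70 FPKM, and Mknk2, a kinase of eIF4E, was 24.1, 37.3 and 32.8 FPKM, and both rose in each mutant. Mlst8 and Rps6kb2, an mTORC1 subunit and an S6 kinase gene, fell in KOa (-0.93 ± 0.35 and -1.11 ± 0.42). The 10 genes of the eIF2 phosphatase and stress response arm gave no rise against FFa, where 7.99% of all genes rose in KOa and 12.8% in KOb. In KOa 3 fell (30.0%, beside 14.1% of all genes) and in KOb 2 fell (20.0%, beside 15.2%). Ppp1cb, a catalytic subunit of protein phosphatase 1, fell in both mutants (194, 117 and 104 FPKM). Ppp1cc and Nck1 fell in KOa (-0.89 ± 0.34 and -1.10 ± 0.50) and were higher in KOb than in KOa. Ppp1r15a, the stress-induced regulatory subunit, was 125, 121 and 92.6 FPKM and fell in KOb at q = 0.0494. Atf4, whose translation rises when eIF2 is phosphorylated, was 128, 172 and 133 FPKM with no call, and Ddit3, its target, was 46.1, 46.2 and 40.1 FPKM with no call.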

How the data were processed

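RNA from 9 libraries of sorted bone marrow erythroid cells was grouped by the labels into FFa, KOa and KOb, 3 libraries each. Per the labels' protocols, RNA was column-purified with DNase and libraries prepared with the NuGEN Encore Complete system. The submitters' processing notes name Cuffdiff 2.1.1, Bowtie2 2.1.0, TopHat2 2.0.8b and build mm10; annotation, scaling and strand use were not given in the sources used here. Per the file headers, the authors deposited 1 FPKM value per gene and group. The authors also deposited the log2 ratio of each pair of groups, a test statistic (a score for that ratio), a p-value and a q-value. No value per library is listed, so depth and library spread are unknown.

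The deposited q equals a Benjamini-Hochberg adjustment over the 31813 completed tests of the 3 comparisons, to within 5.27e-07, and the smallest p, 5e-05, gives the smallest q, 0.000619. A call needs a completed test and a q below 0.05, and q-values in the text are these Cuffdiff values. Counts, medians, ratios and SE were computed with Python 3.11.15, pandas 2.3.3, numpy 2.4.6 and scipy 1.17.1, and the adjustment step was tested on simulated data. Coordinates and sequences are from RefSeq on GRCm38.p6, the assembly of mm10, and overlaps from GENCODE vM21. All 56 members matched RefSeq, and 12 had no promoter entry.

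Members and gene lists were chosen with earlier results of these data known. Named with all values were the members called in any comparison, the 2 of highest mean FPKM of each role, listed paralogs, up to 3 called genes of largest change per pathway list and comparison, and Trim28; Atf4 and Ddit3 were added after their values were seen. Alternatives were a q of 0.01, the statistic read as a standard normal, adjustment within each comparison, FPKM minimums of 1 and 5, a pseudocount of 1, other scalings, joined entries, and narrower member sets.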

Additional observations from a re-analysis of the deposited data

Results flagged for a closer look

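Of the members, 7 had log2 ratios to FFa of opposite sign in KOa and KOb together with a called difference between the mutants in the authors' deposited table. This pattern was not counted over all genes, so it is not shown to be particular to the members. The KOb against KOa log2 ratios were 0.97 for Eif2b5, 0.83 for Eif4ebp2, 0.78 for Eif2c1, 0.76 for Eif4ebp1 and 0.47 for Eif3h, each higher in KOb. They were -0.52 for Eif2c2 and -0.46 for Eif3k, both lower in KOb. No member was called in both mutants against FFa with opposite signs: Eif4ebp1 and Eif3h were called against FFa in KOa, Eif2b5, Eif4ebp2, Eif2c1 and Eif3k in KOb, and Eif2c2 in neither. The uncalled ratio to FFa was smaller than its SE for Eif4ebp1, Eif4ebp2, Eif2c1, Eif3h and Eif3k. For Eif2b5 in KOa (-0.38 ± 0.37) and Eif2c2 in KOb (-0.31 ± 0.29) it was about the size of its SE. KOb was sorted as TER119- and KOa as TER119+, so gate and degree of deletion cannot be told apart for these 7 genes.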

How the results depend on the processing

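At a q threshold of 0.01, 3 members rose and 0 fell in KOa, 11 rose and 1 fell in KOb, and 4 were higher and 0 lower in KOb against KOa. With p taken from the statistic as a normal score, these counts were 1 and 0, 2 and 0, and 0 and 0. Neither setting was counted over all genes, so a larger share among the members than among all genes is not shown at either. With an FPKM minimum of 5, 1 member fell in KOb and 5 were higher in KOb than in KOa. Without the Argonaute genes, an alternative added after the data were seen, 1 member was lower in KOb than in KOa. For the other translation genes, a q threshold of 0.01 gave 3 rises in KOa, 8 in KOb and 6 in KOb against KOa. The normal reading gave 1 rise and 0 falls in KOa, 2 rises and 2 falls in KOb, and 2 higher in KOb against KOa. The causes of these differences between the deposited and the normal p were not tested.

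Rescaling to the same upper quartile moved the members' median log2 ratio to 0.45 in KOa, 0.44 in KOb and -0.049 in KOb against KOa, and rescaling to the same FPKM sum moved it to 1.24 in KOb and 1.16 in KOb against KOa. The median gene moved too, to 0.32, 0.13 and -0.21 under the first and to 0.93 and 1.00 for the 2 KOb comparisons under the second. Centred on the median gene, the members' medians were 0.13, 0.31 and 0.16. Of 44 calls of single members, 19 were kept at a q of 0.01 and 3 under the normal reading (Eif5b in both mutants and Eif1a in KOb). A pseudocount of 1 cut the log2 ratios of low members by over 1.5 times: Eif2c3 in KOa to 0.23, Eif4e3 to -0.60 in KOa and -0.72 in KOb, and Eif2c1 to 0.33 in KOb and 0.34 in KOb against KOa. Depth is unknown, so no limit per gene can be given. No paired analysis was possible because the table lists group values only, and leaving out a library was not run for the same reason.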
